A study of Caenorhabditis elegans with 2 samples.

Results

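Homeobox genes encode transcription factors that bind DNA through a homeodomain and assign identities along the body and among cell types. The set described here holds 79 homeobox genes of *Caenorhabditis elegans*, of 19973 protein-coding genes on the nuclear chromosomes in the Ensembl annotation of WBcel235. Its members are the genes named ceh- with a number, except ceh-12, together with the Hox genes lin-39, mab-5, egl-5, nob-1 and php-3, the ParaHox gene pal-1, and unc-30, unc-42, unc-86, mec-3, lin-11, ttx-1, ttx-3, vab-3, vab-15, cog-1 and unc-62. The rule goes by name and uses no measured value, but it was set with earlier results of these data known. Chromatin immunoprecipitation with sequencing had been done on whole L4 larvae, 47 hours old, grown from starved L1 larvae. The strain was RW12267, in which the allele st12267[vab-7::TY1::EGFP::3xFLAG] on chromosome III tags VAB-7 with EGFP at its own locus, and the antibody was against GFP. Both samples, biological replicates 1 and 2, carried the tag, so there was 1 group and no condition was compared with another. The control experiment that the labels name was not analysed here, and whether any peak depends on the tagged protein was not tested.

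VAB-7 is itself a homeodomain protein, of the Even-skipped class, and is known for posterior patterning and for the identity of DB motor neurons. Hox proteins are known to set regional fates along the body axis. Their DNA binding is known to be helped by TALE-class cofactors, the PBC proteins and the Meis-type protein UNC-62, and other homeodomain classes (LIM, POU, Paired-like, NK-like, sine oculis-like and CUT) are known for fixing neuron and organ identities. Homeobox genes are often regulated by other homeodomain proteins, and the peak lists show where tagged-VAB-7 summits lie at them. In whole larvae, a site occupied strongly in few cells and a site occupied weakly in many cells cannot be told apart.

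The authors' lists carry no read counts, so the depth is unknown and intervals below cover only the sampling of genes. Each peak has a score, the authors' rescaling of the global irreproducible discovery rate (IDR), which ends at 1000. The IDR is the estimated share of irreproducible peaks among those ranked at least as high. It also has a signal from the authors' peak caller, which serves here for ranks and descriptions inside 1 list at a time. The thresholded list of the series held 1815 peaks and is called the series list. The conservative list held 1732 peaks, those of replicates 1 and 2 held 1014 and 1119, and the pooled ranked list held 88007 peaks at any score. A summit is the position of greatest signal in a peak, and a summit within 1000 bp of the annotated 5′ end of a gene is called near it.

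Of the 79 homeobox genes, 6 had a summit of the series list near the 5′ end or inside the gene, 7.59% against 7.29% of all protein-coding genes. Near the 5′ end the count was 4, or 5.06% (exact 95% interval 1.40% to 12.5%), against 5.50% of all protein-coding genes. These were ceh-38 and ceh-39 of the CUT class, ceh-43, an ortholog of Drosophila Distal-less, and ceh-2, an ortholog of Drosophila empty spiracles. Inside the gene the count was also 4 (5.06%), against 3.10% of all protein-coding genes: ceh-38, ceh-43, the Hox gene lin-39 and the Hox cofactor gene unc-62. Both shares of the homeobox genes have intervals that hold the share of all genes. Among the 7 Hox and ParaHox genes, 0 had a near summit. With so few genes the exact 95% interval reaches 40.96% and holds the 5.50% of all protein-coding genes. Without summits at small RNA genes the near count was 2 (ceh-38 and ceh-39), against 4.58% of all genes.

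The bases at 6 of the 7 summits are shown because they let the tRNA genes under the ceh-43 summits be read directly, beside the summits that have no small RNA gene. Each sequence is the plus strand of ce11, 100 bp to either side of the summit, read from the RefSeq copy of WBcel235. Capitals mark GGTTCGA, part of the internal promoter (B box) of tRNA genes, and TGATNNAT, the form of a joint Hox and PBC site, both searched on both strands. TAATTA and TAATGA, words with the TAAT core that homeodomains are known to bind, were searched in the same way and would also be in capitals.
ceh-38, chrII:6951489-6951689: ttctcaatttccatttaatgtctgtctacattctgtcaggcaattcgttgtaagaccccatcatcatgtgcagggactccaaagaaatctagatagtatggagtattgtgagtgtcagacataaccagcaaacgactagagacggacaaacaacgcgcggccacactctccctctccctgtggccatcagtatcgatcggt
ceh-39, chrX:1856225-1856425: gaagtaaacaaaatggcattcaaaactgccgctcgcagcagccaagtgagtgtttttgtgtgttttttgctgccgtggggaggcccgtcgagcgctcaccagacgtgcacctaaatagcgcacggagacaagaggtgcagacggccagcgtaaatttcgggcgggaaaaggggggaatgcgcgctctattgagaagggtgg
ceh-43 upstream, chrIII:4450278-4450478: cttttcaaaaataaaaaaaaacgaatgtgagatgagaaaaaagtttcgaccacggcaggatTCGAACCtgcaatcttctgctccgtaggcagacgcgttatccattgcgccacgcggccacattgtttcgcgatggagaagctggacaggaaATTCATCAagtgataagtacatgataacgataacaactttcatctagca
ceh-43 intron, chrIII:4449495-4449695: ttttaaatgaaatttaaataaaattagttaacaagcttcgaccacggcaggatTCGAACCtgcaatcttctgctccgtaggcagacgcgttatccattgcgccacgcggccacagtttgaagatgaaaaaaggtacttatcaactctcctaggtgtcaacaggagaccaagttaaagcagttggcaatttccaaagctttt
lin-39, chrIII:7532117-7532317: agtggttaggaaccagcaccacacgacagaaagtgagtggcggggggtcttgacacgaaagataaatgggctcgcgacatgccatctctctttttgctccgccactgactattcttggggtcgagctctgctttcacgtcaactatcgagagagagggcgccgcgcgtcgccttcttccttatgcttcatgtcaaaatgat
unc-62, chrV:4507964-4508164: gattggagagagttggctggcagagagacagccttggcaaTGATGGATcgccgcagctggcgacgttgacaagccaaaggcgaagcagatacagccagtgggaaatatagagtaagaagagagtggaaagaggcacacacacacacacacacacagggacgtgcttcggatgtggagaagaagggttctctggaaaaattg

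In the 7 windows of 201 bp at homeobox genes, including that of ceh-2, TAATTA or TAATGA was present in 0, where 193 of all 1815 series windows (10.6%) held 1. GGTTCGA was present in 3 of the 7 and in 18.2% of all series windows, and the 3 were the summits at tRNA genes. TGATNNAT was present in 2 of the 7, at the upstream summit of ceh-43 and at that of unc-62, and in 7.27% of all series windows. GC content over the central 101 bp ran from 43.6% at ceh-38 to 60.4% at ceh-2, where the median over all series summits was 50.5%. A match describes letters only, and no match says only that these letters are not in the window.

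The promoters of the whole family, 250 bp upstream to 50 bp downstream of each 5′ end, gave nearly the shares of all genes. TAATTA or TAATGA stood in 28 of the 79 homeobox promoters (35.4%) and in 32.3% of all protein-coding promoters. TGATNNAT stood in 22 (27.8%), against 23.6% of all. The median GC content of these promoters was 36.7% for homeobox genes and 34.3% for all genes.

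The strongest summit of the family was at ceh-38, whose product carries a cut domain beside its homeodomain. The peak (chromosome II, 6951437 to 6951740) had a signal of 166 and rank 401 of 1815. Its summit lay 63 bp downstream of the 5′ end of the gene, in a first, untranslated exon of 3 of its transcripts, and 30 bp upstream of the nearest annotated transcript start among 24 in all. The same summit lay 289 bp upstream of malt-1, which is transcribed the other way, so it cannot be assigned to 1 of the pair by position. The ranked list of replicate 1 gave it a signal of 85.2 and that of replicate 2 a signal of 68.5, and it was in the thresholded lists of both.

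ceh-39 encodes another CUT-class protein and is known as an X-linked signal element of sex determination. Its peak (chromosome X, 1856173 to 1856476) had its summit 153 bp upstream of the 5′ end, in intergenic sequence, with a signal of 101.8 and rank 973. The signal was 61.6 in replicate 1 (score 796) and 37.2 in replicate 2 (score 549), so neither replicate's own thresholded list held it, while the series list did with a score of 1000. Downstream of ceh-39 on the same strand lie ceh-21 and ceh-41, also of the CUT class, with 103 bp between them. Those genes had no near series summit. Up to 1000 bp from the 5′ end the strongest ranked signal was 34.3 for ceh-21 (score 128) and 41.03 for ceh-41 (score 194), and the ceh-41 summit, 850 bp upstream, lies inside ceh-21. Of the 6 CUT-class genes matched, 2 thus had a near series summit, with an exact 95% interval of 4.33% to 77.7%, which holds the 5.50% of all protein-coding genes.

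**Figure D1:**
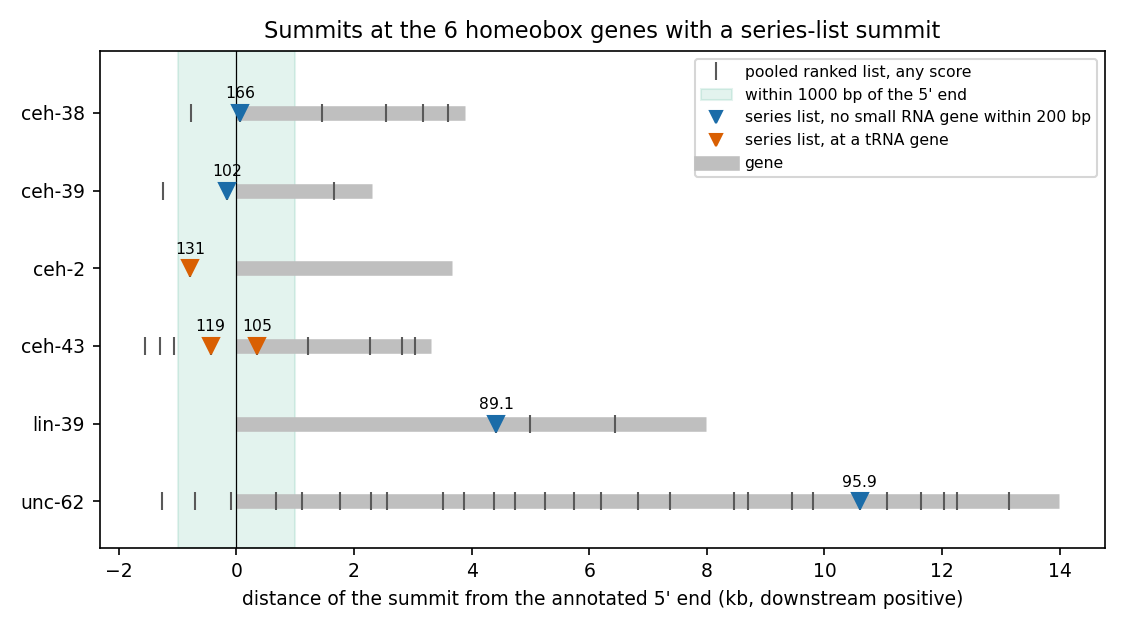
Summits at the 6 homeobox genes with a series-list summit, by distance in kb from the annotated 5′ end, with grey bars for the genes, ticks for pooled ranked summits from 2000 bp upstream to the end of the gene, and triangles for series-list summits labelled with their signal. The shaded band is 1000 bp to either side. The summits of ceh-2 and ceh-43 lie at tRNA genes, and those of lin-39 (89.1) and unc-62 (95.9) lie inside the genes, far from the 5′ end.

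The other 3 of the 5 near summits at homeobox genes each lay inside a tRNA gene. By a wider measure, lying within 200 bp of a small RNA gene of any kind, the homeobox count was also 3 of 5 (60%). By that measure the share was 20.5% of all near series summits and 29.3% of all 1815 series summits. ceh-43 is known as a regulator of dopaminergic neuron identity. It had a summit 435 bp upstream (chromosome III, 4450226 to 4450529, signal 118.9, rank 733) and another 348 bp downstream in its first intron (4449443 to 4449746, signal 104.8, rank 920). Under them lie tRNA-Arg genes at 4450324 to 4450396 and 4449533 to 4449605, both on the strand of ceh-43. The 73 bp of these tRNA genes are identical and occur in 6 copies in the genome, and the ceh-43 windows share a run of 78 bp. Reads inside such a run cannot be placed by their sequence, and how they were handled is not stated by the labels. Replicate 2 held both peaks in its thresholded list (signals 62.7 and 53.4), while replicate 1 had them only in its ranked list (58.3 and 50.4, scores 521 and 726).

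ceh-2 had its summit 780 bp upstream of the 5′ end (chromosome I, 6051079 to 6051382), with a signal of 131 and rank 623. The summit lay within a tRNA-Leu gene on the strand of ceh-2, at 6051155 to 6051236, whose 82 bp occur in 7 identical copies. Both replicates' thresholded lists held it, with signals of 73.3 in replicate 1 and 57.9 in replicate 2. ceh-2 and ceh-43 are the only homeobox genes with a tRNA gene within 1000 bp of the 5′ end, 2 of 79 (2.53%), against 181 of 19973 protein-coding genes (0.906%). Of all genes placed in this way, 136 of 181 (75.1%) had a near series summit. Among the homeobox genes with no such tRNA gene 2 of 77 had one (2.60%), against 4.87% of all such genes.

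**Figure D2:**
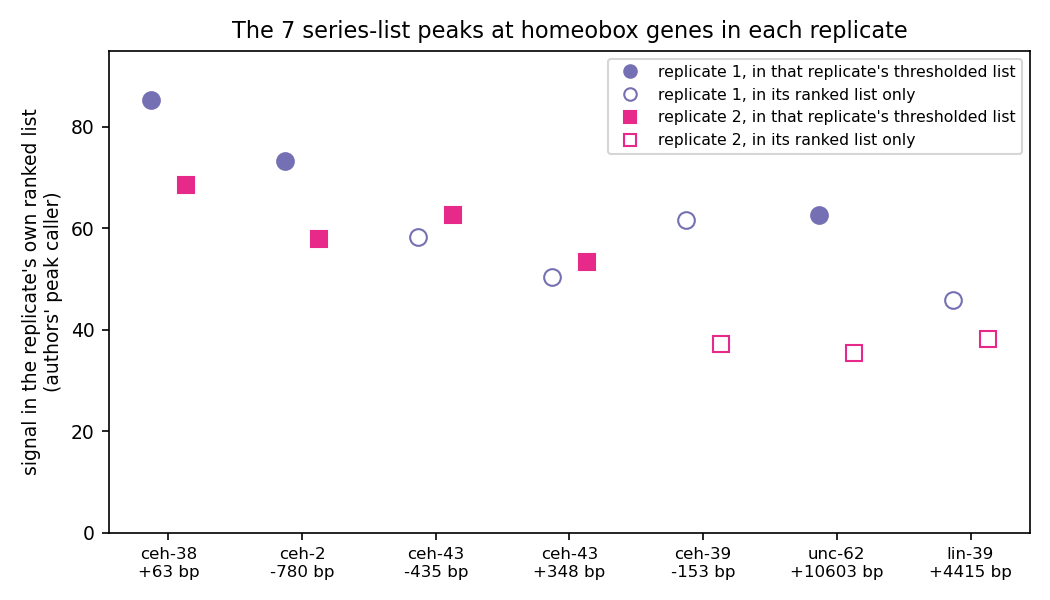
Signals of the 7 series-list peaks at homeobox genes in the ranked list of each replicate, from the authors' peak caller, ordered by signal in the series list. Filled symbols mark peaks in that replicate's thresholded list. The peaks of ceh-38 and ceh-2 are filled for both replicates, and those of ceh-39 and lin-39 for neither.

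Of the 7 series-list peaks at homeobox genes, 2 were overlapped by a peak of both replicates' thresholded lists, 28.6% (exact 95% interval 3.67% to 70.96%), against 38.5% of all 1815 series peaks. In the ranked list comparing the replicates, all 7 had a score of 1000, and the conservative list also held them all. The list of replicate 1 alone gave 2 homeobox genes with a near summit (ceh-2 and ceh-38, 2.53%, against 3.10% of all genes) and 2 with a summit inside (ceh-38 and unc-62, against 1.83%). The list of replicate 2 alone gave 3 with a near summit (ceh-2, ceh-38 and ceh-43, against 3.44%) and 2 with a summit inside (ceh-38 and ceh-43, against 1.84%). The conservative list gave the same 4 near genes, against 5.13% of all genes, and 5 genes with a summit inside, against 2.88%. The gene added there was ceh-79, with a summit in coding exon 3 of 10, 1162 bp downstream of the 5′ end (chromosome V, 13302843 to 13303146, signal 82.3, score 871). In the pooled ranked list the same peak had a score of 724, below the threshold.

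lin-39, the Hox gene of the midbody and of vulval precursor cells, was the only one of the Hox and ParaHox genes with a series summit. The peak (chromosome III, 7532065 to 7532368) had a signal of 89.1, rank 1212, and its summit lay 4415 bp downstream of the 5′ end, in an intron in both annotated transcripts. The nearest transcript start was 2588 bp away. Replicate 1 gave it a signal of 45.9 with a score of 166, and replicate 2 a signal of 38.2 with a score of 504. Neither replicate's thresholded list held it. A second ranked summit 6433 bp downstream had a signal of 65.5 and a score of 636, below the threshold of 830.

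**Figure D3:**
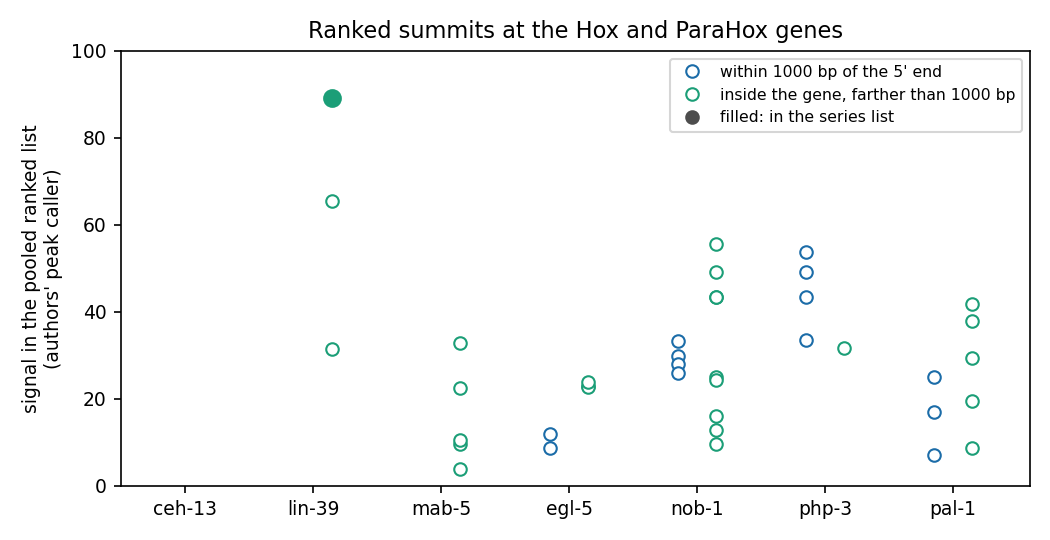
Signals of every pooled ranked summit at the Hox and ParaHox genes, near the 5′ end (blue) or farther inside the gene (green), in units of the authors' peak caller. The lin-39 summit of 89.1 is the only one in the series list, and ceh-13 has none.

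The other genes of the Hox cluster had only summits below the threshold, or none, near the 5′ end or inside. ceh-13, the anterior Hox gene and ortholog of Drosophila labial, had no pooled ranked summit near or inside it. The ranked list of replicate 2 alone had a near one, with a signal of 16.99 and a score of 44. The series summit nearest to ceh-13 was that inside lin-39, 23443 bp away. mab-5, which directs posterior fates and cell migration, had 5 pooled ranked summits inside and none near, the strongest with a signal of 32.9. The ranked list of replicate 1 alone had near summits at mab-5, with a signal of at most 29.4 (score 37). egl-5, a tail Hox gene, had 5 inside, 2 of them near, with signals of at most 23.9. The series summit nearest to mab-5 lay between ceh-13 and mab-5, in an untranslated exon of ncl-1, 46583 bp downstream of the mab-5 5′ end. That nearest to egl-5 lay 40316 bp downstream of its 5′ end. The interval from mab-5 to egl-5, 40.3 kb, held 10 ranked summits and 0 of the series list.

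The posterior-group genes nob-1 and php-3 are neighbours on 1 strand, 236 bp apart, and their interval of 10.1 kb held 14 ranked summits and 0 of the series list. The strongest had a signal of 55.6, and the highest score was 344, for a summit 544 bp upstream of php-3 and inside nob-1. Near the 5′ end of php-3 the strongest signal was 53.7 in the pooled list, above 81.7% of the genes with a ranked summit there. It was 45.4 in replicate 1 and 14.5 in replicate 2. For nob-1 the strongest near signal was 33.2, at the percentile 43.6. pal-1, the ortholog of Drosophila caudal, had 3 near summits of at most 24.9 and 6 inside of at most 41.7, and its nearest series summit was 52195 bp from the 5′ end.

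unc-62 spans 13989 bp, and its series summit lay 10603 bp from the 5′ end of the gene (chromosome V, 4507912 to 4508215, signal 95.9, rank 1089). It was intronic in 17 of the 18 annotated transcripts and exonic in the remaining one, and the nearest transcript start was 860 bp away. Counted over every annotated transcript, unc-62 therefore becomes the fifth homeobox gene with a near summit. Replicate 1 held the peak in its thresholded list with a signal of 62.7, and replicate 2 only in its ranked list with 35.4 (score 514). Inside the gene lay 24 pooled ranked summits. The PBC genes ceh-20, ceh-40 and ceh-60, whose products pair with Hox proteins, had no summit of the series list near or inside, and of these ceh-20 alone had near ranked summits, at most 21.6 in signal.

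Homeobox genes are longer than most, with a median of 3306 bp against 2027 bp for all genes, and this stands beside the count of summits inside. Per megabase of gene, the series list had 12.1 summits inside homeobox genes and 11.8 inside all genes. The pooled ranked list had 699 against 973. A summit of the pooled ranked list lay inside 54 homeobox genes (68.4%), against 66.1% of all genes.

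Below the threshold the family lay close to all genes in the share with a near summit and in its signal, though not in ranked summits inside per megabase. A pooled ranked summit of any score was near 49 of the 79 homeobox genes, 62.03% (exact 95% interval 50.4% to 72.7%), against 68.0% of all genes. The strongest such signal had a median of 34.1 over the 49 homeobox genes and of 35.7 over all 13580 genes with one. Of the 49, 22 were above the median of these genes, 12 in their upper 25% and 14 in their lower 25%. In the ranked list of replicate 1 the medians were 26.2 and 25.02, and in that of replicate 2 they were 17.001 and 17.3. For 34 homeobox genes each replicate had a near ranked summit, and the strongest signals of replicates 1 and 2 had a Spearman rho of 0.38. Over 9947 protein-coding genes of this kind it was 0.45. These are correlations across genes that share their libraries.

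**Figure D4:**
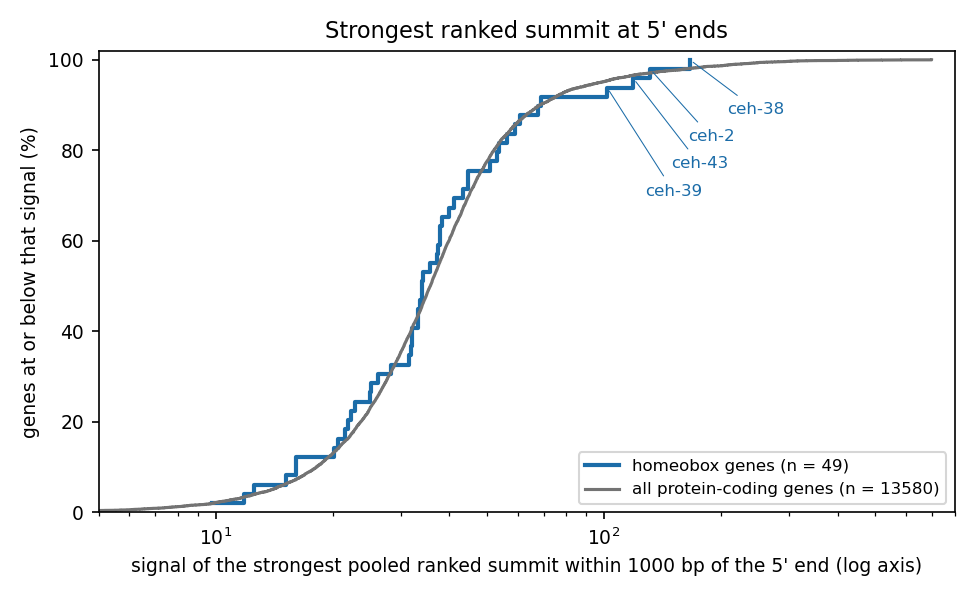
Cumulative share of genes (%) by the signal of their strongest pooled ranked summit within 1000 bp of the 5′ end, on a log axis, for 49 homeobox genes and 13580 protein-coding genes. The curves run close together, with medians of 34.1 and 35.7, and the homeobox genes in the series list are named at the upper end.

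Among summits near the 5′ end, the homeobox genes just outside the threshold were ceh-99, ceh-5, ceh-92 and ceh-32. ceh-99 had a summit 751 bp upstream with a signal of 67.6 and a score of 786, an IDR of 0.0127. ceh-5 had one 127 bp upstream (68.6, score 592) and a series summit 1755 bp upstream, outside the window, with a signal of 68.3. ceh-92 had one 979 bp upstream (59.1, score 569). The gap upstream to the next protein-coding gene was 0 bp for ceh-5 and 197 bp for ceh-92. The summits named at these genes thus cannot be assigned to them by position alone. ceh-32, of the sine oculis-like class, had one 992 bp upstream (60.7, score 536), and php-3 followed with the score of 344. Just inside, all near peaks of the series list at homeobox genes had a score of 1000, and ceh-39 had the lowest signal. At an IDR of 0.05 in the pooled ranked list, 7 homeobox genes had a near summit (8.86%), against 8.58% of all genes, and ceh-5, ceh-99 and ceh-92 were those added.

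Among the classes named by role, the LIM, POU, Paired-like and sine oculis-like genes had 0 series summits near their 5′ ends or inside. Of all genes, 7.29% had one near or inside and 5.50% had a near one. Within 1000 bp of the 5′ end, the strongest ranked summits of these classes were at mec-3, a touch receptor neuron gene of the LIM class (34.1), unc-86, a POU gene of many neuron types (37.7), ceh-45, the ortholog of goosecoid (53.003), and ceh-32. With at most 10 members a class, the exact 95% intervals of these counts of 0 reach 30.8% or more and hold both shares of all genes. Of the 14 NK-like and related genes 2 had a near series summit, ceh-2 and ceh-43, both at tRNA genes, with an exact 95% interval of 1.78% to 42.8% that holds the 5.50%. The 28 members with no class assigned had 0, with an interval to 12.3%, and ceh-5 had the strongest ranked summit near a 5′ end among them.

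A group of 30 homeobox genes had no pooled ranked summit near the 5′ end, and 21 of these had none inside either. The 21 are 26.6% of the set, against 27.5% of all protein-coding genes with none near or inside. Among the 21 were ttx-3, a LIM-class regulator of interneuron identity, and ceh-36 and ceh-37, Otx-like regulators of sensory neurons. For ceh-36 the ranked list of replicate 2 alone had a near summit, 76 bp upstream, with a signal of 15.7 (score 58). Homeobox genes often stand in large gaps, with a median of 2685 bp free of protein-coding genes upstream, against 937 bp for all genes. Where this gap was at least 5000 bp, 11 of 26 homeobox genes had a near ranked summit, 42.3% (exact 95% interval 23.4% to 63.1%), against 61.6% of all genes with such a gap. Under 1000 bp it was 19 of 24 (79.2%), against 72.9%. The X chromosome holds 21 of the 79 homeobox genes, and 12 of these had a near ranked summit (57.1%), against 62.5% of all X-linked genes.

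A list of further homeobox genes outside the set, which did not include ceh-12, did not add to the near counts. Of the 20 genes listed, 0 had a near series summit (exact 95% interval to 16.8%), against 5.50% of all genes. vab-7 itself had its nearest series summit 2476 bp upstream, with a signal of 89.8. pros-1, the ortholog of prospero, had 1 inside, 2143 bp downstream, with a signal of 93.6, at a tRNA gene. Of 22 genes listed as regulators of Hox expression (Polycomb-like, Trithorax-like and Wnt pathway genes), 3 had a near series summit, 13.6%. The exact 95% interval, 2.91% to 34.9%, holds the 5.50% of all genes. The 3 genes were sor-3 (signal 251, 292 bp upstream, at a tRNA gene), sor-1 (90.03 and 75.8, at 716 and 516 bp upstream) and lin-59 (93.5, 426 bp upstream). SOR-1 and SOR-3 are known as Polycomb-like repressors of Hox genes, and LIN-59 as a Trithorax-like protein.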

How the data were processed

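Peak lists of chromatin immunoprecipitation with sequencing from 2 biological replicates of 1 group were used, on ce11 per the labels. Neither labels nor headers name an aligner or a peak caller, or say how the control was handled. Per the deposited column layout, the score is the authors' rescaling of the IDR and the signal is that of the authors' peak caller, of unstated normalization. The deposited −log10 values of the global IDR were read for homeobox peaks below the threshold. Which series ranked list compares the replicates was settled from the values: 69.7% and 55.3% of its replicate signals recur in the ranked lists of replicates 1 and 2, against 2.10% and 1.78% for the pooled list.

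Summits (peak start plus deposited offset) were placed on the Ensembl release 115 annotation of WBcel235, which has ce11 coordinates. Small RNA genes within 200 bp were taken from the same annotation, tRNA products from RefSeq. Python 3.11.15, numpy 2.4.6, pandas 2.3.3 and scipy 1.17.1 were used. Shares have exact Clopper-Pearson 95% intervals, and no p-value was computed, since nothing but 1 group was measured. Placement was checked on planted summits. Members and lists were chosen with earlier results of these data known. Genes are named by rule: members with a series or conservative summit, all Hox and ParaHox genes, vab-7, the strongest of each class, the 5 highest scores below the threshold, and bound genes of the other lists. Genes given as examples of those without pooled ranked summits, and ceh-20, ceh-21, ceh-40, ceh-41 and ceh-60, were picked after values were seen. ceh-44 was not matched by symbol. The windows of 500 and 2000 bp, other lists and other 5′ ends were tried as alternatives.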

Additional observations from a re-analysis of the deposited data

How the results depend on the processing

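Shares in parentheses are those of all protein-coding genes under the same setting. The count of 4 homeobox genes with a near summit (5.50%) was 3 within 500 bp (3.74%), 5 within 2000 bp (8.15%), 4 in the conservative list (5.13%), 3 among the upper 50% of series peaks by signal (2.89%) and 5 over every annotated transcript (6.03%). It was 2 without summits at small RNA genes (4.58%) and 7 at an IDR of 0.05 (8.58%), an alternative chosen after seeing the data. Without replicate 1 or 2 it was 2 to 3 (3.10% to 3.44%). The count inside the gene, 4 (3.10%), was 1, ceh-38, among the upper 50% of peaks (1.51%), 3 without summits at small RNA genes (2.06%), 5 in the conservative list (2.88%), 6 at an IDR of 0.05 (6.28%), 2 without replicate 1 (1.84%) and 2 without replicate 2 (1.83%). For the median ranked signal, parentheses hold the median of all genes. The median of 34.1 (35.7) was 31.5 within 500 bp (30.8), 39.5 within 2000 bp (41.6) and 34.8 in the ranked list comparing replicates (35.9). In the ranked list of a single replicate signals are on another scale. There it was 26.2 for replicate 1 (25.02) and 17.001 for replicate 2 (17.3). The direction of the difference from all genes thus changed with the setting. The 2 series peaks overlapped by the thresholded lists of both replicates stayed 2 under a 50% overlap and under summits within 100 bp. No paired analysis was possible because there was 1 group. Read depth is unknown, so a summit missing from a list is not shown to be absent.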
